A study of Mus musculus with 15 samples.

Results

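The mouse genome holds its odorant receptors in clusters, and the 132 probe sets described here are the olfactory receptors (Olfr genes) of chromosome 9. They were taken from the 22206 probe sets of the array as those whose identifier begins with the code for chromosome 9 and whose single annotated symbol is Olfr followed by a number, and each carried a different symbol. The set was chosen by the measured level of one of them, Olfr77, which was noticed as higher after Ang II, so its values are given as a description with no test. The question was whether the other 131 moved with it or lay at the level of background. Mouse lymphatic endothelial cells (mLECs), a cell line according to the labels, were treated with saline or with angiotensin II (Ang II), the pressor peptide of the renin-angiotensin system, at 500 nM for 12 or 24 h, with 5 samples per group and 1 array per sample. No genotype, strain or animal age is given for these cells in the sources used here, and the paper calls them purchased primary cells. The methods also state a lower Ang II concentration than the labels. For the saline cells no time of harvest is stated, which means that Ang II and time in culture cannot be told apart here. Nothing states that the 5 replicates of a group were separate cultures, and the p-values measure the spread among these samples alone, which could be a technical one.

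An olfactory receptor is a G protein-coupled receptor of the cilia of olfactory sensory neurons, and each such neuron normally transcribes a single receptor gene from a single allele while the rest of the family lies in silenced chromatin. In those neurons the odorant-bound receptor acts through the G protein alpha subunit Gnal and adenylate cyclase Adcy3 to open the cyclic nucleotide-gated channel built around Cnga2. Enhancers that bind the homeodomain factor Lhx2, the factor Ebf1 and the cofactor Ldb1 gather near the chosen gene. Receptor genes lie in tandem clusters that arose by duplication. In other tissues most receptor genes are not detected.

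By the number in the identifier the 132 receptors fell into 4 runs separated by gaps of more than 50 numbers. The first run held 21 receptors with Olfr77 among them, the second 65, the third 15 and the fourth 31. Within every run the identifier order was the order of the gene starts in the RefSeq annotation of assembly GRCm38.p6 (20 of 20, 64 of 64, 14 of 14 and 30 of 30 consecutive pairs). All receptors of the first and second runs for which a strand was found lay on the plus strand (18 and 53) and all of the last pair of runs on the minus strand (12 and 26), with 23 receptors missing from the promoter table that gave the strand. Neighbours by identifier were therefore neighbours on one strand, and 89 of 128 such pairs were also next to each other when both strands were put in one order. In that joint order the nearest gene before Olfr77 was Olfr862, on the minus strand, and the 4 genes after it were pseudogenes that are not among the 132. RefSeq lists 179 Olfr genes on chromosome 9, of which 130 code for protein, and the 132 receptors comprised all 130 of these and 2 pseudogenes. Between the receptors of the first run lay 2 other probe sets, Zfp317, which encodes a zinc finger protein, and 1 with no single symbol.

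The bases before the annotated start are shown for Olfr77 as the gene of interest, for Olfr868 as the next receptor on its strand and for Olfr872 as the receptor of the same run with an unadjusted p under 0.05 at 24 h. The sequences are those of RefSeq on GRCm38.p6, plus strand, at chr9:19916979-19917228 for Olfr77, chr9:20098376-20098625 for Olfr868 and chr9:20236912-20237161 for Olfr872, each the 250 bases up to the start. Capitals mark TAATTA, the core bound by homeodomain factors of the Lhx2 type, which reads the same on both strands.
Olfr77: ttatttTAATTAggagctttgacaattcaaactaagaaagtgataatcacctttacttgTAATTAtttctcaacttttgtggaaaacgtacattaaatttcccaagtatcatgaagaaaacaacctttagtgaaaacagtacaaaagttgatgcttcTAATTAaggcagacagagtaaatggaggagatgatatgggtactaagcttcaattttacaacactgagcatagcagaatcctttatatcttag
Olfr868: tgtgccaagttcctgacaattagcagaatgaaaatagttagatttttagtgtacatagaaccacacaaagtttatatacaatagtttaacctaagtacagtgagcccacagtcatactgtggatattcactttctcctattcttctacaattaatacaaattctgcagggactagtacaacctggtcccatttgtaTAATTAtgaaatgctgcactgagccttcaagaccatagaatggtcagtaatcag
Olfr872: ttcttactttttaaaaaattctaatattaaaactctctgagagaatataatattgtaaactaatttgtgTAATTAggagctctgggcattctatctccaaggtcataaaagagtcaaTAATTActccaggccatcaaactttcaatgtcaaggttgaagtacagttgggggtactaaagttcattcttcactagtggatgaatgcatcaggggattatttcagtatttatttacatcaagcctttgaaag
The Olfr77 window held 3 copies of TAATTA, beginning 244, 191 and 93 bases before the start, the Olfr868 window 1 copy at 54 bases and the Olfr872 window 2 copies at 181 and 133 bases. Of the 110 windows of 109 of the 132 receptors, 27 (24.55%) held at least 1 copy, against 17.18% of 838 windows of other olfactory receptors and 4.84% of all 32851 windows of the table. In the first run 9 of 18 windows (50%) held it, against 15.09%, 41.67% and 18.52% in the second, the third and the fourth run. The windows were rich in A and T, 69.56% on average in the first run and 66.78% over the chromosome 9 receptors against 46.76% over all windows, and the part of base composition in these shares was not tested. The Ebf-type motif CCCNNGGG, also its own reverse complement, was absent from the 3 windows shown. It was in 2 of the 110 windows, in none of the first run and in 11.82% of all windows. In 68 of the 110 windows the 3 bases at the annotated start read ATG. Whether that ATG begins the coding sequence was not checked, but if it does those windows need not reach the start of transcription. The 3 windows shown had no ATG at the annotated start. Among the 42 windows with no ATG at the annotated start, 23.81% held TAATTA. This held for 16.36% of such windows of other olfactory receptors and 4.425% of all such windows. A match describes letters in a window and says nothing of binding.

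Levels are log2 expression values after robust multi-array averaging (RMA), and a difference of 1 is a doubling. Olfr77 read 4.52, 4.14, 4.44, 4.91 and 4.72 in the 5 saline controls, a mean of 4.55 ± 0.29 (SD, n = 5). At 12 h of Ang II it read 4.59, 4.63, 5.57, 5.18 and 6.21, a mean of 5.24 ± 0.68 (SD, n = 5). At 24 h it read 5.35, 7.07, 6.0, 5.42 and 5.66, a mean of 5.90 ± 0.70 (SD, n = 5). All 5 arrays of 24 h lay above all 5 controls, while 2 of the 12 h arrays lay inside the control range. The means were 0.69 (SE 0.31) above control at 12 h and 1.35 (SE 0.31) at 24 h, which is 1.61-fold and 2.56-fold. Replicate 5 carried much of the 12 h difference, which was 0.45 without it. Replicate 2 was the highest array at 24 h, where the difference was 1.06 without it. The 24 h difference was the highest of all 22206 probe sets, and the 12 h difference ranked 29th among them and first among the 132. Olfr77 was noticed for this change, so its ranks, its SE and its lack of overlap at 24 h are description and no support. The 24 h and control arrays did not overlap in 1.07% of all probe sets. The SD of Olfr77 ranked 102nd of 132 from the highest in the controls, 3rd at 12 h and 8th at 24 h, so its treated arrays were spread more widely than those of most receptors. By quantitative PCR (qPCR), which was not examined here, the paper reports Olfr77 mRNA rising with time in Ang II. It also reports that losartan, an angiotensin receptor blocker, reversed this rise at 24 h.

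Olfr77 was chosen for its change, so smaller differences in the receptors beside it follow from that choice. Of the 10 nearest by identifier, 5 on each side, 7 lay above control on average and 3 below at both times. Their differences ran from -0.23 to 0.65 at 12 h (median 0.075) and from -0.30 to 0.62 at 24 h (median 0.113). An unadjusted p under 0.05 was reached by 1 of the 10 at 12 h (4.91% of all probe sets) and by another 1 at 24 h (7.1% of all), and no adjusted p was under 0.05.

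On the side before Olfr77, the next receptor, Olfr859, read 4.90, 4.88, 4.87, 4.91 and 4.72 in the controls, 4.92, 4.72, 5.15, 4.66 and 5.14 at 12 h and 4.6, 4.77, 5.01, 4.97 and 5.37 at 24 h. Its 3 groups overlapped, with differences of 0.06 and 0.09 (SE 0.15 for both). Olfr58 differed from control by 0.20 and 0.16 (SE 0.23) and Olfr857 by 0.18 and 0.37 (SE 0.25), with all groups overlapping. Olfr855 read 3.36, 3.70, 4.33, 4.35 and 4.63 in the controls, 4.43, 3.99, 5.13, 4.54 and 5.54 at 12 h and 5.30, 4.45, 4.43, 4.13 and 4.10 at 24 h. It was 0.65 (SE 0.29) above control at 12 h, with an unadjusted limma p of 0.0344 and an adjusted p of 0.966, and 0.41 above at 24 h with an unadjusted limma p of 0.171. Olfr851 differed by -0.12 and 0.14 (SE 0.23).

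On the side after it, Olfr868 read 2.95, 3.53, 3.39, 3.19 and 3.58 in the controls, 3.63, 3.44, 3.11, 3.20 and 2.95 at 12 h and 3.02, 2.97, 3.33, 4.13 and 3.03 at 24 h. Its groups overlapped fully, with differences of -0.06 and -0.03 (SE 0.21). Olfr869 differed by 0.09 and -0.06 (SE 0.29) and Olfr871 by 0.06 and -0.30 (SE 0.24). Olfr872 read 4.21, 4.89, 5.08, 5.04 and 4.28 in the controls, 6.12, 4.97, 5.12, 4.50 and 5.26 at 12 h and 4.95, 5.70, 6.01, 5.04 and 4.90 at 24 h. It was 0.49 (SE 0.27) above control at 12 h and 0.62 (SE 0.27) at 24 h, with an unadjusted limma p of 0.0341 and an adjusted p of 0.663 at 24 h, and its groups overlapped. Olfr39, the last of the 5, differed by -0.23 and 0.08 (SE 0.24). Of the receptors next to Olfr77 in the joint order of both strands, Olfr862 and Olfr860 before it differed by -0.05 and -0.19 and by -0.14 and -0.36 (SE 0.25 for both). Olfr866, the first receptor after it in that order, differed by 0.51 and 0.13 (SE 0.22), with an unadjusted limma p of 0.0343 and an adjusted p of 0.966 at 12 h.

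**Figure D1:**
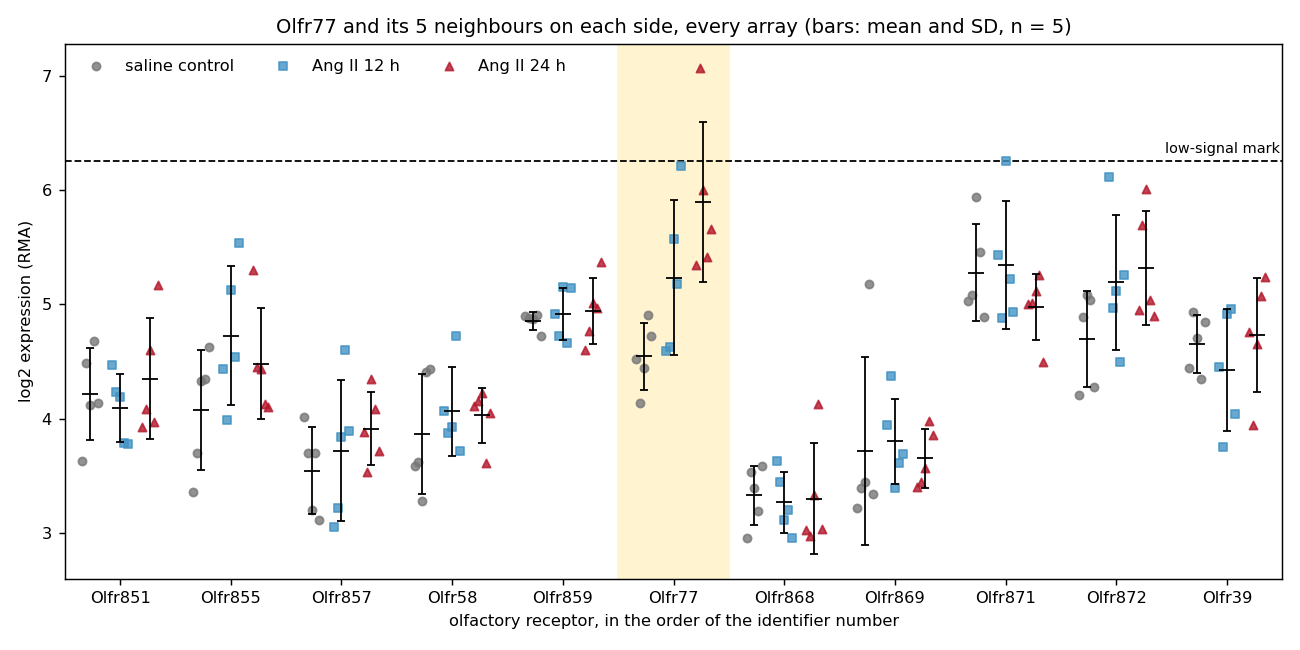
Log2 expression of Olfr77 (shaded) and of the 5 receptors before and after it by identifier, with each of the 15 arrays as a point and the mean and SD of 5 arrays as bars. The Ang II arrays of Olfr77 sit between 4.59 and 7.07 against 4.14 to 4.91 in the controls, while the groups of the 10 neighbours overlap; the dashed line is the low-signal mark of 6.26.

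In the rest of the first run, 3 of 20 receptors had an unadjusted p under 0.05 at 12 h (15%, against 4.91% of all probe sets), Olfr832 and Olfr855 higher and Olfr835 lower, and 1 of 20 at 24 h (5%, against 7.1%), Olfr872. Its 20 receptors other than Olfr77 had a median difference of 0.075 at 12 h (12 higher, 8 lower) and of 0.087 at 24 h (13 higher, 7 lower), beside 0 and 0.004 over all probe sets of the array. Olfr835 read 3.32, 3.69, 4.44, 4.97 and 3.52 in the controls, 3.43, 2.90, 3.07, 2.68 and 3.55 at 12 h and 4.72, 4.38, 4.04, 3.22 and 3.61 at 24 h. It lay 0.86 (SE 0.30) below control at 12 h, with an unadjusted limma p of 0.00914, and was back at the control level (0.006) at 24 h. Olfr832 lay 0.40 (SE 0.18) above control at 12 h and 0.17 below at 24 h. The genes flanking the run were Ubtfl1, Mbd3l2 and Mbd3l1 before it and Zfp846, Fbxl12os and Ubl5 after it, and none of these 6 nor the 2 probe sets inside it had an unadjusted p under 0.05 at either time.

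None of the other 131 chromosome 9 receptors passed the test after adjustment over all probe sets in any comparison. The smallest adjusted limma p was 0.934 at 12 h (Olfr944), 0.553 at 24 h (Olfr901), 0.737 for 24 h against 12 h (Olfr960) and 0.686 in the F test over the 3 groups (Olfr944). At 12 h, 9 of 131 (6.87%) had an unadjusted p under 0.05, 6 higher and 3 lower, where 4.91% of all probe sets did (2.51% higher, 2.4% lower). At 24 h it was 10 of 131 (7.63%), 7 higher and 3 lower, where 7.1% of all probe sets did (3.64% higher, 3.46% lower). Between 12 and 24 h it was 8 of 131 (6.11%), 6 higher and 2 lower, against 5.99% (3.07% higher, 2.92% lower), and in the F test 13 of 131 (9.92%), against 6.25% of all probe sets and 9.18% of the 959 other olfactory receptors. The shares at 24 h and between the time points were near those of the whole array, and those at 12 h and in the F test were above it and near those of the 959 other olfactory receptors (7.09% and 9.18%). After adjustment, 0% of all probe sets passed at 12 h, 0.018% at 24 h, 0.0225% between the time points and 0.0225% in the F test. Of the other 131 receptors, the 24 h and control arrays did not overlap in 2, where this held for 1.07% of all probe sets, the 12 h and control arrays in none (0.689% of all), and the 24 h and 12 h arrays in 1, Olfr974 (1.2% of all).

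A pair of arrays stood apart from the rest, control replicate 3 and Ang II 24 h replicate 3, whose mean correlations with the other arrays across probe sets were 0.957 and 0.962, against 0.966 to 0.969 for the other 13. Without both, the 24 h count was 6 in place of 10, 3 higher and 3 lower, with 5 of the 10 receptors shared, which is 4.58% of the 131 against 5.73% of all probe sets in that setting. Olfr146, Olfr872, Olfr891, Olfr906 and Olfr960 were the ones lost. Without control replicate 1, on the other hand, the 24 h count was 15 (11.5% of the 131, against 6.74% of all probe sets) and the F test count 18 (13.7%, against 6.06%). The median 24 h difference of the 132 receptors was 0.048 with all arrays and -0.0055 without Ang II 24 h replicate 3, the array in which the receptors as a set read highest, with a median deviation of 0.10 from their means over all arrays. The median 12 h difference was 0.005, and -0.003 with each array centred on its median. Over all probe sets the medians were 0 at 12 h and 0.004 at 24 h, and over the 959 other olfactory receptors -0.006 and 0.026. Of the 131, 66 lay above control on average at 12 h, 64 below and 1 level with it, and 74 lay above and 57 below at 24 h.

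The receptors with the smallest p-values were scattered over the 4 runs. The 12 h and the 24 h differences were taken from the same 5 controls, so values at both times are not independent of each other. Olfr944, of the second run, read 3.90, 3.84, 3.72, 3.67 and 3.80 in the controls, 4.25, 4.24, 4.64, 4.45 and 3.78 at 12 h and 4.29, 4.18, 4.02, 4.42 and 4.21 at 24 h. All its 24 h arrays lay above all controls and 4 of the 5 at 12 h did, with differences of 0.49 and 0.44 (SE 0.15), unadjusted limma p of 0.00412 and 0.0085 and adjusted p of 0.934 and 0.563. Olfr146, of the last run, was also higher at both times, by 0.40 and 0.45 (SE 0.17). At 12 h, Olfr27 lay 0.53 (SE 0.19) and Olfr866 0.51 (SE 0.22) above control, and neither stayed so far above it at 24 h (0.18 and 0.13). At 24 h, Olfr960 lay 0.49 (SE 0.18), Olfr906 0.48 (SE 0.22) and Olfr18 0.39 (SE 0.18) above control.

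Olfr901, of the second run, read 3.74, 3.97, 3.93, 4.85 and 3.97 in the controls, 4.00, 4.47, 3.48, 3.75 and 3.48 at 12 h and 3.31, 3.72, 3.54, 3.07 and 3.59 at 24 h. Every 24 h array lay below every control, and the difference was -0.65 (SE 0.21), with an unadjusted limma p of 0.0069 and an adjusted p of 0.553. Olfr891 (-0.69, SE 0.26) and Olfr935 (-0.47, SE 0.21) were the other receptors on the lower side of the 24 h count. Olfr945 lay 0.51 (SE 0.21) below control at 12 h and 0.40 below at 24 h, where its unadjusted limma p was 0.0629. Olfr952 differed by -0.67 (SE 0.24) at 12 h and by -0.21 at 24 h. On the lower side, the receptors that came next in the order of p without reaching 0.05 were Olfr875 (-0.38, SE 0.20) and Olfr150 (-0.46, SE 0.25) at 12 h and Olfr44 (-0.29, SE 0.16) at 24 h.

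Among the receptors with an unadjusted p under 0.05 at 12 h, at 24 h or between the time points, 1 pair of consecutive receptors lay on the same side. Olfr960 and Olfr961, which follow each other in the second run, both lay above control at 24 h (0.49, SE 0.18 and 0.53, SE 0.25) and above the 12 h arrays, each with an unadjusted p under 0.05. Olfr960 read 3.97, 3.76, 3.64, 4.70 and 3.89 in the controls, 3.96, 3.76, 3.78, 3.87 and 4.07 at 12 h and 4.38, 4.07, 4.65, 4.68 and 4.63 at 24 h. Olfr961 read 5.29, 5.62, 4.14, 4.71 and 4.25 in the controls, 4.50, 4.48, 4.43, 4.91 and 4.92 at 12 h and 5.50, 5.49, 4.69, 5.27 and 5.71 at 24 h. At 24 h both overlapped the controls, and neither passed after adjustment (adjusted limma p of 0.592 and 0.697). Of the 128 pairs of neighbours, 64 (50%) had differences of the same sign at 12 h and 65 (50.78%) at 24 h.

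**Figure D2:**
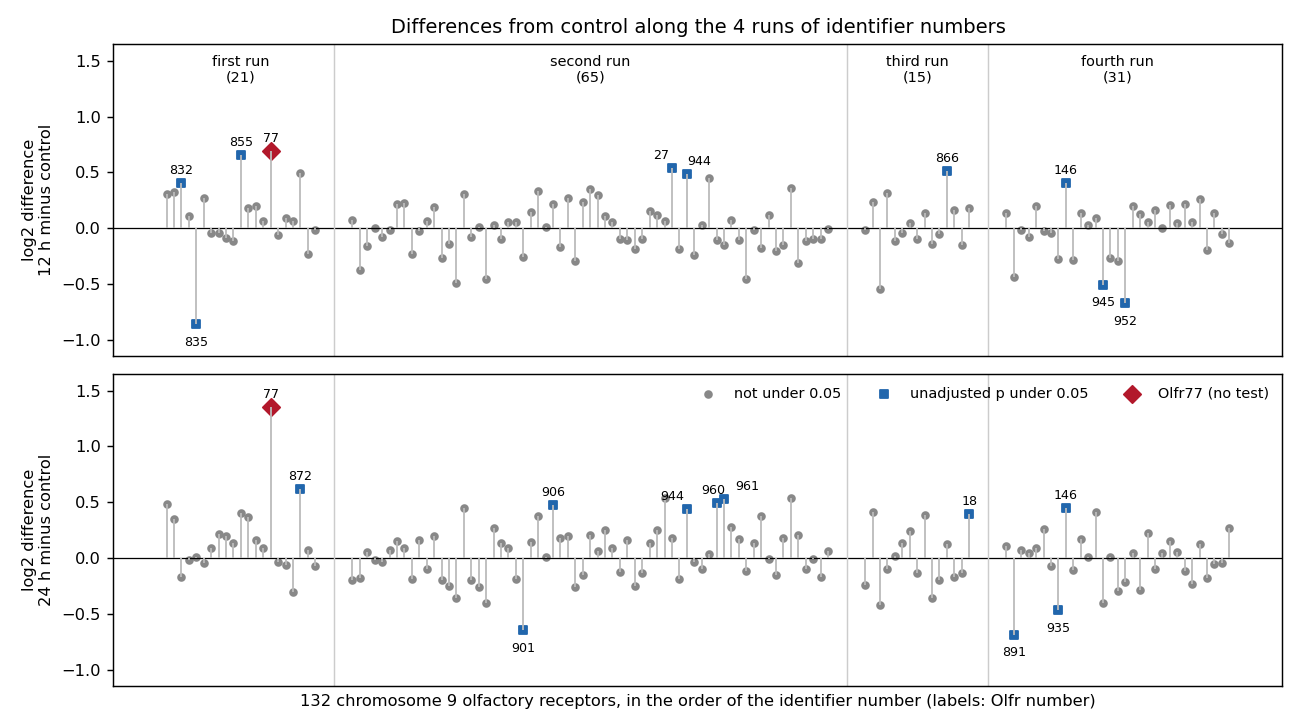
Log2 difference of the group means from control at 12 h (top) and 24 h (bottom) for all 132 receptors in identifier order, with the 4 runs separated by lines and squares for an unadjusted limma p under 0.05. Olfr77, which was chosen for its change, lies at 1.35 in the lower panel. The other 131 lie between -0.69 and 0.62 at 24 h, and the squares are spread over the runs.

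Whether neighbours moved together was also asked of the deviations of each array from its group mean, which hold nothing of the difference by which Olfr77 was noticed. Over the 15 arrays, the 128 pairs of neighbours had a median Pearson's r of 0.06 (quartiles -0.19 and 0.23), with 54.69% of pairs above 0. The 8518 pairs that were not neighbours had a median of 0.01 (quartiles -0.20 and 0.21), with 51.13% above 0, and pairs of a chromosome 9 receptor with another olfactory receptor also 0.01. In the joint order of both strands, 130 pairs of neighbours gave 0.07, and the 20 pairs of the first run gave 0.04. These values describe pairs that share the same 15 arrays, and without both arrays that stood apart the median for neighbours was 0.03. The highest pair was Olfr146 with Olfr936 (r = 0.77), followed by Olfr39 with Olfr873 (0.61) and Olfr878 with Olfr881 (0.56), and the lowest was Olfr27 with Olfr943 (-0.69). The pairs that were not neighbours ran from -0.86 to 0.85. They were far more numerous, so their wider range does not show whether the extremes among neighbours are unusual.

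The deviations of Olfr77 were set against those of its 10 neighbours. Pearson's r over 15 arrays was above 0 for 6 and below 0 for 4, with a median of 0.09. The highest value was with Olfr855 (r = 0.44, permutation p = 0.134; Spearman's rho 0.49, permutation p = 0.095) and the lowest with Olfr868 (r = -0.54, permutation p = 0.0897; rho -0.54, permutation p = 0.0488). After Benjamini-Hochberg adjustment over the 10 pairs the smallest two-sided permutation p was 0.667 for Pearson's r and 0.475 for Spearman's rho. With the 2 arrays farthest from the median of Olfr77 left out, replicate 2 at 24 h and replicate 5 at 12 h, r was above 0 for 8 of the 10 and below 0 for 2. The median was 0.23, with a range from -0.40 (Olfr868) to 0.43 (Olfr58). Of the 5 before Olfr77, r was above 0 for 5, against 4 with all arrays, and of the 5 after it for 3, against 2. The 2 arrays were picked by the values of Olfr77. All 10 values of r share its series, so these counts are not independent. The split between neighbours above and below 0 thus changed with these 2 arrays.

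**Figure D3:**
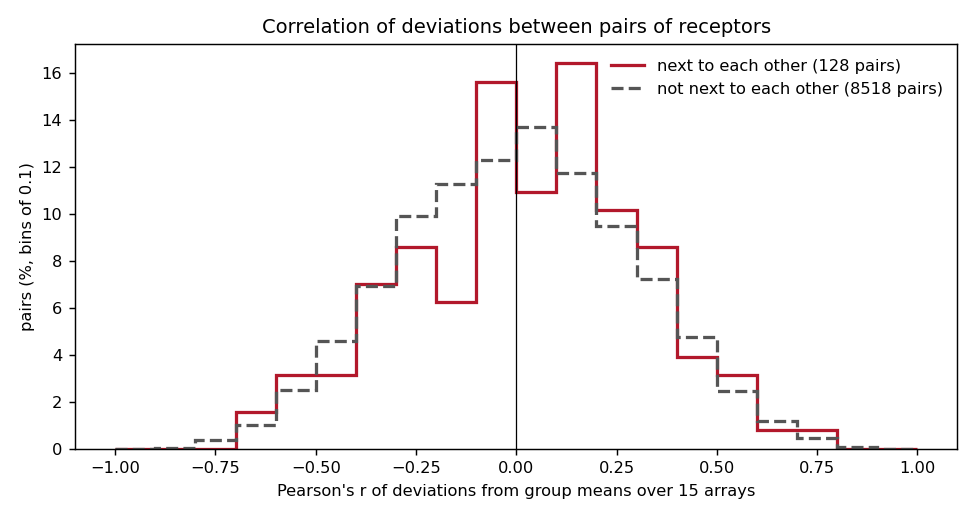
Share of receptor pairs (%) by Pearson's r of their deviations from the group means over 15 arrays, in bins of 0.1, for the 128 pairs next to each other in identifier order (solid) and the 8518 other pairs of chromosome 9 receptors (dashed). Both outlines centre close to 0, with medians of 0.06 and 0.01.

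The levels of the receptors lay in the low part of the array. As a rough mark of low signal, the 487 probe sets of usually silent families (defensins, keratin-associated proteins and the vomeronasal, trace amine and taste receptors), which few tissues express, had a 95th percentile of 6.26. Levels of different probe sets depend on their probes, and of 61 ribosomal protein probe sets, genes every cell uses, only 37 lay above the mark, so a level below it does not show that a gene is silent. The median level of the 132 receptors was 4.31, beside 4.38 for the 959 other olfactory receptors, 4.66 for the silent families and 4.81 for all probe sets. Of the 132, 3 lay above the mark on average, where 14.53% of all probe sets did. Olfr77 was below it on average, with a mean of 5.23 over all arrays, and passed it on 1 of its 15 arrays, at 24 h. The residual SD within groups was 0.40 in the median of the other 131 receptors, 0.34 for the other olfactory receptors, 0.37 for the silent families and 0.28 for all probe sets.

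Olfr143 had the highest mean level, 7.01, and read 7.26, 7.27, 6.53, 7.25 and 7.18 in the controls, 7.18, 7.13, 6.86, 7.21 and 6.71 at 12 h and 6.59, 6.51, 6.94, 6.51 and 7.96 at 24 h. Its groups overlapped, with differences of -0.08 and -0.20 (SE 0.23). Olfr935 had a mean of 6.77 and was the receptor above the mark with an unadjusted p under 0.05, reading 6.47, 7.33, 7.08, 7.47 and 6.75 in the controls and 6.22, 6.87, 6.92, 6.40 and 6.36 at 24 h. Olfr978, with a mean of 6.29, differed by -0.12 and -0.10 (SE 0.20). Just below the mark, Olfr870 (6.23) differed by -0.15 and -0.13 (SE 0.19) and Olfr885 (6.15) by -0.02 and 0.16 (SE 0.24).

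**Figure D4:**
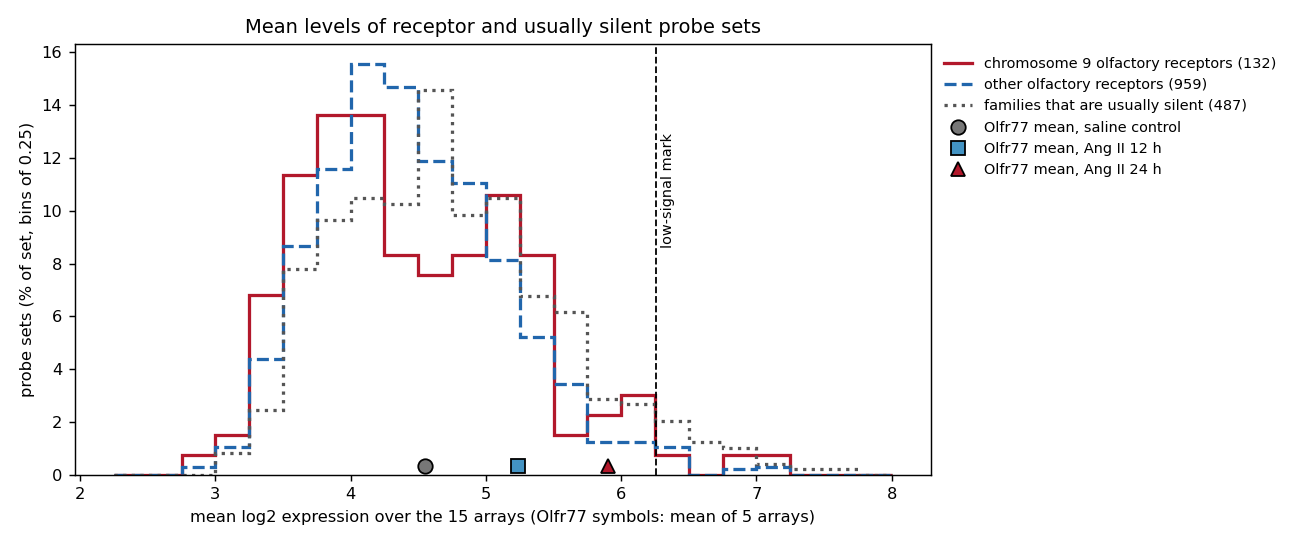
Share of probe sets (%) by mean log2 expression over the 15 arrays, in bins of 0.25, for the 132 chromosome 9 receptors, the 959 other olfactory receptors and the 487 probe sets of usually silent families. The 3 outlines overlap over most of their range. Above the mark lie 2.29% of the 131 receptors other than Olfr77 and 5.13% of the silent families, whose share is set by the definition of the mark. The mean of Olfr77 moves from 4.55 in the controls to 5.24 at 12 h and 5.90 at 24 h without reaching the low-signal mark of 6.26 (dashed).

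The genes through which these receptors signal in olfactory neurons were read on the same arrays. Of 31 genes of the pathway, receptor trafficking and receptor gene choice, 29 were matched to a probe set, 6 of which lay above the mark, and none had an adjusted p under 0.05. At 12 h none had an unadjusted p under 0.05 (4.91% of all probe sets), at 24 h 1 of the 29 did (7.1% of all), and in the F test 3 of the 29 (10.3%, against 6.25% of all). The gene at 24 h was Kdm1a, a histone demethylase needed for receptor gene choice, which lay 0.50 (SE 0.16) below control at 24 h with an adjusted limma p of 0.553. Gnal differed by -0.24 and -0.07 (SE 0.18), Adcy3 by 0.00 and -0.24 (SE 0.14) and Cnga2 by 0.03 and -0.13 (SE 0.16). Gng13, which the paper places at the core of its gene co-expression network, differed by 0.13 and -0.29 (SE 0.15). Its unadjusted limma p at 24 h was 0.0588. Among the nuclear factors, Lhx2 differed by -0.17 and -0.13 (SE 0.20), Ebf1 by -0.23 at both times (SE 0.15) and Ldb1 by 0.09 and 0.05 (SE 0.15). The median difference over the 29 was 0.00 at 12 h and -0.07 at 24 h.

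As for the cells, 0 of 7 markers of olfactory sensory neurons lay above the mark, Omp, the marker of mature olfactory neurons, with a mean level of 4.10. Among 9 lymphatic endothelial markers 1 did, the chemokine Ccl21a (6.43), while Prox1, the transcription factor that defines lymphatic identity, read 5.09, Lyve1 4.32, Flt4 4.62 and Pdpn 5.34. None of 8 general endothelial, 6 fibroblast and 4 smooth muscle markers lay above it, and 1 of 4 leukocyte markers (Ptprc, 7.03) and 2 of 4 epithelial markers (Krt8, 7.96, and Krt18, 6.33) did. A level below the mark does not show that a gene is silent, so these counts do not settle the cell type. The paper reports staining of these cells for the Lyve1 and Flt4 proteins and qPCR of Lyve1, Flt4 and Prox1. The log2 of the summed linear level of the neuronal markers was 7.06 to 7.43 in the controls, 7.07 to 7.33 at 12 h and 7.04 to 7.21 at 24 h. In such bulk samples fewer cells of a type and less RNA per cell cannot be told apart.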

How the data were processed

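The 15 arrays were grouped by their labels. As the authors describe it, CEL files were generated with GCOS and the data were analysed with the Transcriptome Analysis Console and RMA, and the authors deposited log2 expression values of 22206 probe sets with 2 decimals. No detection call or filter is given, and for the probe set identifiers no genome build is named. The array named in the methods differs from the design to which the identifiers belong. Symbols came from the platform annotation, strand and promoter windows from RefSeq tables of GRCm38.p6. The members and lists were chosen with earlier results of these data known.

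The log2 values were tested as deposited with limma 3.58.1 in R 4.3.3 (lmFit, contrasts, eBayes) on all probe sets in 3 groups, with an F test and Benjamini-Hochberg adjustment over all 22206. The script was tested on simulated data. Deviations from group means were correlated over the 15 arrays, with 100000 permutations within groups for Olfr77. The number of arrays limits the precision.

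The named receptors were Olfr77, its 5 neighbours on each side by identifier, the 5 higher and 5 lower with the smallest p at each time and the 5 with the highest mean level. A last item of that rule, likeness of proteins, was not used here. Olfr832, Olfr860, Olfr862, Olfr906, Olfr961, Olfr974 and the pairs of the correlation extremes were named after their values were seen, as was the choice of ribosomal proteins as a reference for the mark. The alternatives were array weights, unmoderated variances, a robust fit with an intensity trend, quantile normalization, a filter on intensity, median centring, a block for the replicate number, fits of only the 2 groups compared, other percentiles for the mark, Spearman's rho, the RefSeq order and leaving out each array. The correlations of Olfr77 with its neighbours were also read without the 2 arrays farthest from its median.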

Additional observations from a re-analysis of the deposited data

Results flagged for a closer look

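In groups of 5 arrays, an array was marked where its gap to the nearest other array exceeded 0.71 of the range of the group. Of 93 groups tested 8 were marked, where chance marks about 1 in 20. None of them concerned Olfr77. Among its neighbours, Olfr869 had 1 control at 5.18 against 3.22 to 3.44 in the other controls (gap 0.8878 of the range), Olfr859 had 1 control at 4.72 against 4.87 to 4.91 (0.7895), and Olfr58 had 1 array of 24 h at 3.61 against 4.05 to 4.22 (0.7213). Olfr901 had 1 control at 4.85 against 3.74 to 3.97 (0.7928), on the side away from its 24 h arrays. Olfr952 had 1 array of 12 h at 4.45 against 3.12 to 3.41 (0.782) and 1 array of 24 h at 3.39 against 3.99 to 4.21 (0.7317). Olfr143, the receptor with the highest mean level, had 1 control at 6.53 against 7.18 to 7.27 (0.8784), and that array was control replicate 3, which stood apart over all probe sets. The median deviation of the 132 receptors from their means was -0.099 in control replicate 5 against -0.0417 to -0.0293 in the other controls (0.823).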

How the results depend on the processing

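No receptor among the 131 reached an adjusted p under 0.05 under any alternative run (0 to 0 with each array left out). The differences of Olfr77 and of the receptors named for a small p kept their sign under every alternative run. These receptors were picked for their differences in the same data, and several alternatives leave a difference of means unchanged. Their kept signs are therefore no support for the differences. Differences near 0 did not all keep their sign, such as that of Olfr859 at 24 h (-0.0185 to 0.174 with each array left out). With only probe sets above the median intensity in the fit, which kept 45 of the 131 receptors, the unadjusted counts were 3 in the F test (6.67%, against 7.1% of all probe sets in the fit), 1 at 12 h (2.22%, against 4.81%), 5 at 24 h (11.1%, against 8.33%) and 2 between the time points (4.44%, against 6.62%), and 0 receptors did not overlap at 24 h against control or against 12 h (1.35% and 1.43% of all). With no moderation of the variances the F test gave 6 (4.58%, against 6.18% of all probe sets) and 24 h gave 5 (3.82%, against 7.08%). With control replicate 3 and Ang II 24 h replicate 3 both left out, a setting added after seeing the data, 24 h gave 6 (4.58%, against 5.73%), the groups did not overlap in 1 receptor at 12 h (0.763%, against 1.35%), 4 at 24 h (3.05%, against 2.99%) and 2 between the time points (1.53%, against 2.02%), and the median correlation of neighbours was 0.0253. That correlation was 0.0322 by Spearman's rho. With the replicate number as a block it was 0.0017, and the counts were 12 in the F test, 9 at 12 h, 10 at 24 h and 9 between the time points. Deviations of arrays of the same number in different groups were no more alike than those of different numbers (r -0.0426 to 0.0451, and -0.0516 to 0.0574). That check cannot show whether equal numbers mark a shared culture or day, which is not stated. With the 90th or 99th percentile as the mark, 9 or 1 receptors lay above it. With each array left out in turn, the unadjusted counts were 9 to 18 in the F test (5.58% to 6.78% of all probe sets), 7 to 10 at 12 h (4.56% to 5.61%), 7 to 15 at 24 h (6.13% to 7.93%) and 7 to 13 between the time points (5.3% to 6.5%). The highest were 18 (13.7% of the 131, against 6.06%) and 15 (11.5%, against 6.74%) without control replicate 1 and 13 (9.92%, against 5.82%) without Ang II 12 h replicate 3. Receptors without overlap numbered 0 to 2 at 12 h (2 without Ang II 12 h replicate 5), 2 to 4 at 24 h (4 without control replicate 4) and 1 to 3 between the time points, where 0.689% to 1.72%, 1.07% to 2.39% and 1.2% to 2.31% of all probe sets did not overlap. The medians ran from -0.0223 to 0.0222 at 12 h, from -0.0055 to 0.0688 at 24 h and from 0.0098 to 0.0475 between the time points, the correlation of neighbours from 0.0351 to 0.0769 and the receptors above the mark from 2 to 4. The causes of these shifts were not tested. Signal near the level of silent families limits what can be read from most of these receptors.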
